A study of Mus musculus with 12 samples.

Results

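B16F10 is a mouse melanoma cell line, and the 6 libraries described here come from its vector control cells, 3 without treatment and 3 given 8 Gy of radiation. They were chosen by joining the deposited tables by gene identifier, taking the vector control columns, and keeping genes that reached a value of 10 in 3 or more libraries of the series. That makes 6 of 12 libraries, and 14721 genes were tested. The other 6 libraries come from Bub1KO cells, whose Bub1 gene was targeted by CRISPR-Cas9, likewise untreated or given 8 Gy. They enter the shared fit and the comparison of the genotypes at the end. All groups were grown in DMEM with fetal bovine serum. The vector carried by the control cells, the number of control lines or clones, and the time from irradiation to RNA extraction are not stated by the labels. Nor do the labels tell whether a group's 3 libraries are separate cultures. The p-values therefore reflect only how far these libraries vary, which may be technical.

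Ionizing radiation breaks both strands of DNA. The kinases ATM and ATR then stabilize p53, a transcription factor that turns on the cell-cycle inhibitor p21 (Cdkn1a), its own inhibitor Mdm2 and several death genes. A complex of RB-family proteins, E2F and MuvB (DREAM), kept together when p21 is high, represses genes of S phase and mitosis. In mitotic promoters it acts through cell-cycle homology regions, often found beside CCAAT boxes, which the factor NF-Y binds. Nucleic acids released after damage can be sensed by RIG-I-like receptors and cGAS, which induce interferon and, through its receptors, the interferon-stimulated genes. Melanoma cells carry in addition the pigment program of the factor Mitf.

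The 6 libraries held 19380726 to 33087366 reads in genes, and 20153 to 21408 genes had a read in the untreated libraries against 22356 to 23570 in the irradiated ones. Values are normalized reads: the authors' read counts divided by a size factor for each library. Along the first principal component (77.8% of the variance of the 6 libraries) untreated and irradiated libraries lay apart. One library of the shared fit, Bub1KO untreated replicate 1, stood apart from its group (GC gap -0.72). Without it 9025 genes in place of 7861 were called for radiation in vector control cells. GC-rich genes were relatively higher in the irradiated libraries, with a log2 gap between GC-rich and GC-poor genes of 0.19 to 0.36, against -0.38 to -0.17 in the untreated ones. GC content thus moved with treatment, and its part in the changes was not tested. Counts and values with the GC trend removed from each library stand below beside many of the results. Some lists given without them also moved. Melanocyte markers were present in every library, at levels that differed widely. Pmel, a structural protein of the pigment granule, had 93398, 88955 and 92818 normalized reads without radiation and 108486, 103419 and 103722 after it, while the untreated mean was 10494 for Mitf, 649.8 for Tyr and 12.9 for Oca2. Markers of other cell types were lower than Pmel, Mitf and Tyr, though some, such as Pdgfra (untreated mean 116), were above Oca2. Several rose. The 17 leukocyte markers summed to 32.3 to 37.4 normalized reads in untreated and 93.5 to 104 in irradiated libraries, with 6 at 0 reads in all 6 libraries, Cd3e, Adgre1 and Tyrobp among them. Most of that rise was Lyz2, the macrophage lysozyme, with 4.14, 5.16 and 5.04 normalized reads untreated and 64, 72.6 and 69.7 irradiated (log2 3.6, limma adjusted p = 2.87e-08). The sums were 215 to 271 and 564 to 578 for 15 fibroblast and endothelial markers (2 at 0 reads, Dcn and Kdr), and 57.2 to 78.7 and 77.2 to 102 for 11 epithelial markers, 5 of them at 0 reads.

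In this comparison 4065 genes rose and 3796 fell with radiation by limma at an adjusted p under 0.05, which is 27.6% and 25.8% of the 14721 tested, or 53.4% in either direction. Each count below of list members that rose or fell stands against these shares. All log2 changes were taken after adding 1 to each value, which understates the change of low genes. Rises were larger than falls. At least 2-fold changes numbered 1747 up (11.9%) and 284 down (1.93%), and at least 4-fold changes 494 up and 7 down. The median log2 change was 0.87 among the genes that rose, -0.48 among those that fell and 0.02 over all tested genes. Of the tested genes, 1114 passed the filter through the irradiated libraries alone. The 3 untreated and 3 irradiated values did not overlap for 65.4% of tested genes. Each statement below that a single gene's libraries did not overlap stands against that share. The split of calls moved with the scaling: 51.7% of calls were rises here, 62.4% with equal library totals (which shift the median of all genes to 0.11) and 37.1% with the GC trend removed (median -0.13). In bulk RNA, fewer cells of a kind and less RNA per cell cannot be told apart, and values are relative to the other genes of a library, not amounts per cell.

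**Figure D1:**
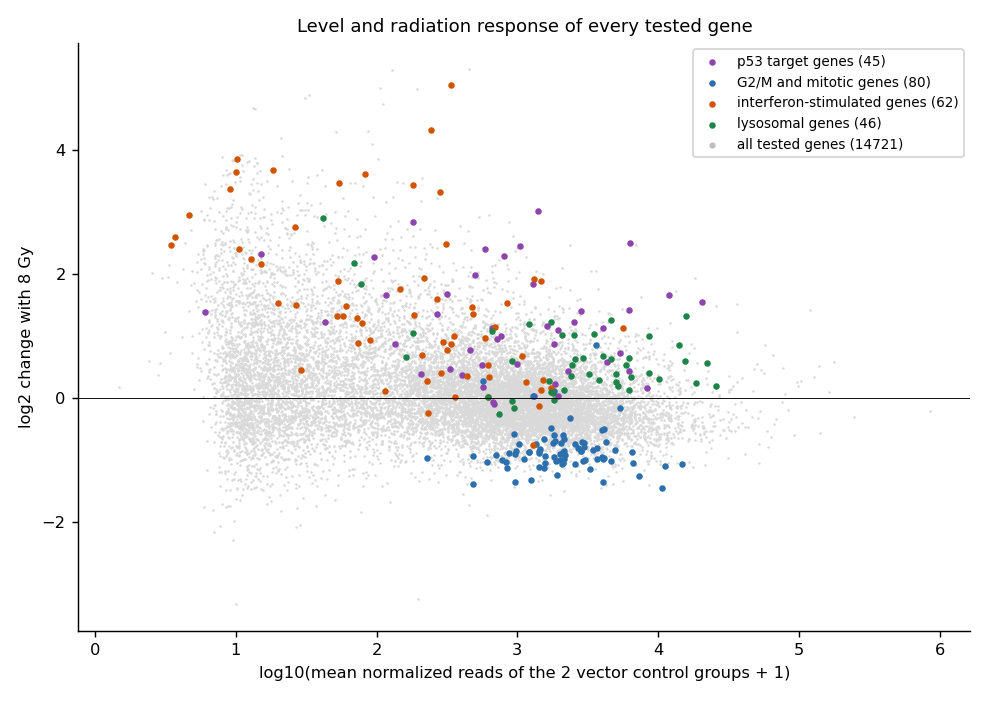
Log2 change with 8 Gy in vector control cells (vertical) against log10 of the mean normalized reads of the untreated and irradiated groups plus 1 (horizontal) for 14721 tested genes in grey, with 4 gene lists in colour. Mitotic genes lie mostly below 0 and p53 targets, interferon-stimulated genes and lysosomal genes mostly above it, and the largest rises are at low and middle levels.

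Among protein-coding genes with a mean of at least 50 in 1 of the groups, the 10 with the largest rise were Ccl5, Spp1, Ifit1, Cpz, C1s1, Wfdc3, Bglap2, Isg15, Notch3 and Rab44. Ccl5, a chemokine that attracts T cells, stood at 24, 19.3 and 21.4 normalized reads in the untreated libraries and 902, 906 and 845 after radiation. That is a log2 rise of 5.30 (SE 0.12, limma adjusted p = 9.15e-12). Spp1, the secreted matrix protein osteopontin, went from 6.63, 6.45 and 3.78 to 277, 239 and 238 normalized reads (log2 5.28, SE 0.20). C1s1, a protease of the complement system, was at 9.12, 7.74 and 17.6 and then 417, 372 and 328. The receptor gene Notch3 had a mean of 7.7 untreated and 165 irradiated, and Rab44, a small GTPase gene, 4.22 and 97.1. In each of these genes every irradiated library lay above every untreated one, but the genes were picked by the size of their rise. Groups did not overlap for 65.4% of all tested genes. The 10 largest falls were smaller: Hapln1, Gcat, Sapcd2, Hist1h1e, Pbk, Map2k6, Hirip3, Mki67, Hmgb2 and Hmgb3. Hapln1, which links hyaluronan to proteoglycans, fell from 912, 1134 and 814 to 219.7, 269.6 and 287 normalized reads (log2 -1.87, SE 0.19, limma adjusted p = 3.34e-06). Pbk, a mitotic kinase, fell by 1.56 on the log2 scale, and Gcat, an enzyme of threonine breakdown, by 1.83.

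The p53 targets rose broadly. Of 50 listed genes 45 were tested (2 through the irradiated libraries alone), 37 rose, none fell and 8 did not pass. Their median log2 change was 1.13, against 0.02 over all tested genes, and 24 rose at least 2-fold. With the GC trend removed 36 were higher and 4 lower. Cdkn1a, the p21 inhibitor of cyclin-dependent kinases on chromosome 17 (29090976 to 29100727, GRCm38), had 10265, 9736 and 11503 normalized reads without radiation and 29981, 30457 and 31717 with it. Its libraries did not overlap, and the log2 rise was 1.55 (SE 0.09, limma adjusted p = 2.27e-08). Mdm2, the ubiquitin ligase that degrades p53, went from 2525, 2666 and 2485 to 5402, 5621 and 5719 (log2 1.13, SE 0.08). The largest rise of the list was that of Ak1, an adenylate kinase, from 277, 299 and 344 to 2509, 2668 and 2279 normalized reads (log2 3.02, SE 0.12, limma adjusted p = 8.10e-10). Trp53inp1, a p53 cofactor and autophagy protein, rose from 1952, 2110.3 and 1596 to 9682, 11196 and 11097. Bbc3, the death-promoting protein Puma, rose from 45.6, 33.5 and 47.9 to 275, 443 and 235, with the second irradiated library highest. The kinase Plk2, the antiproliferative gene Btg2 and the death-receptor family member Eda2r followed at log2 2.45, 2.41 and 2.28. Damage-repair targets moved less, Xpc by 0.55 and Ddb2 by 0.38. Several classical members did not pass. Bax, a pore-forming death protein, stood at 2111, 1748 and 1918 and 2773, 2559.7 and 2527 (log2 0.45, SE 0.23, limma adjusted p = 0.116). Its groups did not overlap, the fit of the 6 vector control libraries alone called it higher at the same log2 change, and with the GC trend removed it was called lower (log2 -0.32, limma adjusted p = 0.0128). Fas, a death receptor, had 4.97, 3.87 and 0 and then 4.98, 8.17 and 8.58 normalized reads (limma adjusted p = 0.0809, or 0.0372 with untreated replicate 1 and 0.372 with untreated replicate 3 left out, where the log2 change of 1.39 fell to 0.58), and the secreted stress factor Gdf15 had 4 reads in all untreated and 14 in all irradiated libraries. Ppm1d, a phosphatase that ends the checkpoint, had a log2 change of -0.09.

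**Figure D2:**
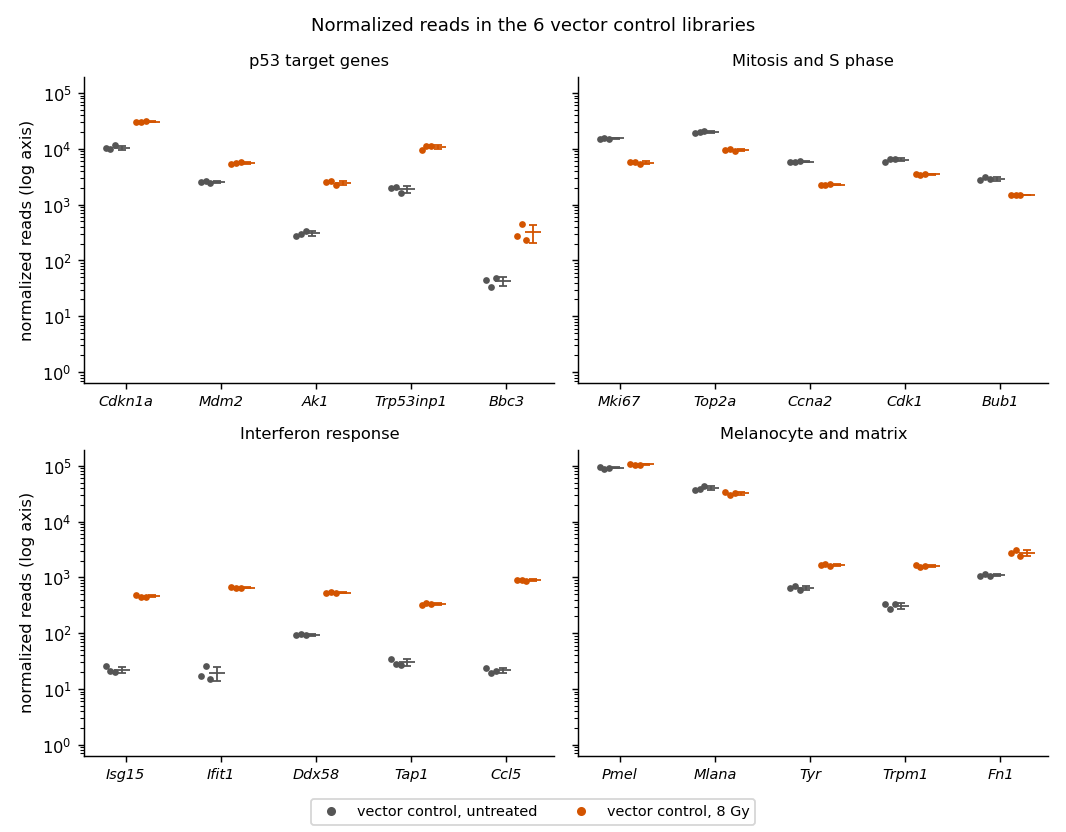
Normalized reads (log axis) of 20 genes in each of the 3 untreated (grey) and 3 irradiated (orange) vector control libraries, with mean and SD beside the points. Cdkn1a and Mdm2 and the interferon-response genes are higher in every irradiated library, the proliferation genes lower, and Pmel and Mlana differ little.

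Genes of mitosis fell together. All 80 listed G2/M and mitotic genes were tested, and 75 fell, 2 rose and 3 did not pass, with a median log2 change of -0.89. Mki67, whose protein coats mitotic chromosomes and marks cycling cells, had 15222, 15911 and 15222 normalized reads without radiation and 5844, 5812 and 5339 with it. This was the largest fall of the list (log2 -1.45, SE 0.08, limma adjusted p = 2.03e-08), and its libraries did not overlap. Ccna2, the cyclin of S and G2 phase, fell from 5748, 5803 and 5957 to 2233, 2263 and 2361, and Top2a, the topoisomerase that untangles chromosomes, from 18833, 20389.6 and 20561 to 9518, 9759.5 and 9279.9. Cdk1, the kinase that drives mitosis, fell less (log2 -0.84), as did its cyclin Ccnb1 (-0.84). The polo kinase Plk1 stood at 2865, 2462 and 2505 and 1481, 2055 and 1463, with the second irradiated library highest (log2 -0.66). Bub1 itself, the spindle-checkpoint kinase disrupted in the other genotype, had 2752, 3185 and 2859 normalized reads in untreated and 1484, 1461 and 1507 in irradiated vector control cells (log2 -0.98, SE 0.09, limma adjusted p = 1.77e-06). The 2 members that rose were Gtse1, a microtubule protein that also restrains p53 (log2 0.85), and Pttg1, the securin that guards sister chromatids (log2 0.28, limma adjusted p = 0.0387). The call of Pttg1 was lost in 5 of 6 fits with 1 vector control library left out (limma adjusted p up to 0.151).

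Promoters of mitotic genes are shown because cell-cycle homology regions (TTTGAA) and CCAAT boxes are known elements of such promoters. Each line gives the 120 bases before the annotated start from RefSeq (GRCm38.p6), 5′ to 3′ on the gene's strand, with CCAAT or TTTGAA, or their reverse complements ATTGG and TTCAAA, in capitals. The genes were chosen after their values were seen. The windows lie at chr4:118437344-118437463 (Cdc20), chr10:69352913-69353032 (Cdk1), chr7:127042421-127042540 (Kif22) and chr7:135716380-135716499 (Mki67), all on the minus strand.
Cdc20: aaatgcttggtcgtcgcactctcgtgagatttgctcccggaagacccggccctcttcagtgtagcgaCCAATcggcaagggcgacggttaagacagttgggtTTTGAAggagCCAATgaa
Cdk1: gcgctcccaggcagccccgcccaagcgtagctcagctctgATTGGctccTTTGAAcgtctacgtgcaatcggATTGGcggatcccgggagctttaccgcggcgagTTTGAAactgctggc
Kif22: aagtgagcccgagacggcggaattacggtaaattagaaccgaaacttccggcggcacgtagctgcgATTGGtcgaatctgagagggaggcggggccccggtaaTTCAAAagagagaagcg
Mki67: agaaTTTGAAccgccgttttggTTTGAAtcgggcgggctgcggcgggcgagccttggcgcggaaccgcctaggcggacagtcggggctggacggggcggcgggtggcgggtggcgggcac
Cdc20, the activator of the anaphase-promoting complex, fell from 3483, 3565 and 4181 to 2219, 2079.5 and 2183 normalized reads, and Kif22, a chromosome-moving kinesin, from 2508, 2550.2 and 2990 to 1163, 1067 and 1163. Over windows from 250 bases before to 50 after the start, TTTGAA on either strand stood in 64.4% of 73 promoters of 67 mitotic genes, against 17.9% of all 32851 promoters. CCAAT on either strand stood in 71.2% against 37.4%. Within the list the median log2 change was -0.95 over 44 tested genes with TTTGAA and -0.84 over 23 without it. For CCAAT the order was the reverse, with -0.86 over 47 genes that have it and -0.93 over 20 that do not. Over all tested genes with a promoter, those with TTTGAA had a median of 0.001 (1439 genes) and those without it 0.034 (8658 genes).

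S-phase genes fell to a like extent. Of 63 listed G1/S and replication genes, all tested, 59 fell, none rose and 4 did not pass, with a median log2 change of -0.83. E2f7, a repressor of the E2F family, fell by 1.39 on the log2 scale, and the nucleotide enzymes Dut and Tyms by 1.29 and 1.25. Pcna, the clamp of the replication fork, went from 9527, 9483 and 9106 to 4509, 4477 and 4318 normalized reads (log2 -1.08, SE 0.06). The helicase subunit Mcm5 went from 10039.9, 9354 and 10112 to 5600.2, 5772 and 5258, and Rrm2, a subunit of ribonucleotide reductase, from 12271, 13319.6 and 12806 to 6401, 6308 and 6441. All of their irradiated libraries lay below the untreated ones. Replication-dependent histone genes, whose mature transcripts have no poly(A) tail, moved the other way where they were measured: 16 of 65 were tested (4 through the irradiated libraries alone), 10 rose and 1 fell, or 10 and 2 with the GC trend removed. Hist1h2bc rose from 63, 67.1 and 74.3 to 435, 501 and 416 normalized reads (log2 2.71), and the linker histone Hist1h1c from a mean of 327 to 1378. The linker histone Hist1h1e fell from 77.9, 54.2 and 92 to 28.4, 34.5 and 11.8. The other 49 listed histone genes did not pass the filter, and near-identical copies of this family can share reads. Hist2h3c2 rose by 2.99, a value that falls to 2.38 without untreated replicate 2.

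Most repair genes fell as well. Of 58 listed genes of double-strand break repair and the Fanconi pathway 37 fell (63.8%), 4 rose (6.9%) and 17 did not pass (median log2 -0.47). Over all tested genes 25.8% fell and 27.6% rose. Bard1, the partner of Brca1, fell by 1.01 on the log2 scale, the checkpoint kinase Chek1 by 0.99 and the helicase Brip1 by 0.87. Brca1 itself rose, from 2643, 2819.7 and 2678 to 5402, 5270.1 and 5217 (log2 0.96, SE 0.07, limma adjusted p = 1.23e-07), opposite in direction to Bard1. The end-joining genes Xrcc5 and Prkdc rose by 0.58 and 0.25, and the recombination gene Rad51d by 0.34. Xrcc6, the partner of Xrcc5 in the Ku heterodimer, fell by 0.58.

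In the list of nuclear-envelope, chromatin and cell-cycle brake genes often followed in senescence, 8 of 23 tested members rose and 9 fell (median log2 -0.25). Those are 34.8% and 39.1%, against 27.6% and 25.8% over all tested genes. With the GC trend removed 7 rose and 13 fell. Lmnb1, lamin B1 of the nuclear envelope, had 6858, 7079 and 6800.3 normalized reads untreated and 2630.2, 2604 and 2740.4 irradiated (log2 -1.38, SE 0.07, limma adjusted p = 1.06e-08). The chromatin proteins Hmgb2, Hmgb3 and Hmgb1 fell by 1.45, 1.42 and 1.40 on the log2 scale, and the lamin B receptor Lbr by 0.98. Lmna, the A-type lamin gene, rose by 1.01. D-type cyclins, which open the G1 gate, rose: Ccnd1 from 6331, 6070.3 and 6305 to 20363, 21155 and 20407 normalized reads (log2 1.73), Ccnd2 by 0.86 and Ccnd3 by 0.29. The cell-cycle inhibitor genes Cdkn2a and Cdkn2b had 0 reads in all 6 libraries.

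Interferon-stimulated genes rose in 50 of 62 tested cases, with 1 fall and 11 that did not pass. Of the 76 listed genes 14 were not tested, and 10 of the 62 passed the filter through the irradiated libraries alone. The median log2 change was 1.33, and 38 rose at least 2-fold. With the GC trend removed 48 were higher and 2 lower. Ifit1, a protein that binds foreign RNA ends, lies on chromosome 19 (34640871 to 34650009). It had 17.4, 25.8 and 15.1 normalized reads without radiation and 669, 641 and 655 with it, a log2 rise of 5.04 (SE 0.22, limma adjusted p = 1.64e-09). Isg15, a ubiquitin-like modifier, went from 25.7, 20.6 and 20.2 to 485, 454 and 439.8 (log2 4.32, SE 0.16, limma adjusted p = 4.53e-10). Both genes were low in all untreated libraries and tightly grouped after radiation. Usp18, which removes Isg15 and damps interferon receptors, had a mean of 2.12 and then 32.5 normalized reads. Irf7, the factor that amplifies interferon production, had 1 read in all untreated and 62 in all irradiated libraries, a ratio of normalized reads of 50.02 (exact 95% interval for counting error only, 8.65 to 2007). Smaller rises were those of the antiviral membrane protein Bst2 (1.15) and the factor Irf9 (1.33), which acts with Stat2 downstream of the interferon receptor. Stat2 rose by 0.70. Slfn9 fell by 0.75, and Ifit2, of the same family as Ifit1, had a log2 change of -0.13 at a mean of 1492 normalized reads untreated.

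The promoters of Ifit1 and Isg15 are shown as the interferon-stimulated genes with the largest rise. Each line is the 120 bases before the annotated start from RefSeq (GRCm38.p6), at chr19:34640769-34640888 on the plus strand for Ifit1 and chr4:156200819-156200938 on the minus strand for Isg15. Capitals mark the core of the interferon-stimulated response element, read as GAAA, any 2 bases and GAAA again, or its reverse complement, and overlapping matches are joined.
Ifit1: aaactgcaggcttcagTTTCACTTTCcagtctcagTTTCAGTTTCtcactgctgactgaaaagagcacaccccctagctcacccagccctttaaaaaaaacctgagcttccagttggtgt
Isg15: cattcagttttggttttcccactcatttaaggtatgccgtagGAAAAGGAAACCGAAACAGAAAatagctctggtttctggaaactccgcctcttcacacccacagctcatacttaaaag
This core stood on either strand in 41.3% of 75 promoters of 59 listed interferon-stimulated genes, against 3.44% of all 32851 promoters. The median log2 change was 1.6 over 23 tested members that have it and 1.0 over 25 that do not, and the shares that rose were 78.3% and 76.0%. Over all tested genes 37.6% of the 338 with the core rose, against 29.7% of the 9759 without it.

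Genes for the sensing, editing and decay of double-stranded RNA moved both ways. Of 30 tested (1 through the irradiated libraries alone) 12 rose (40%) and 10 fell (33.3%), with a median log2 change of 0.11. With the GC trend removed 10 rose and 14 fell (median -0.15). Ddx58, the receptor RIG-I, had 92, 96.7 and 92 normalized reads untreated and 527, 536 and 518 irradiated (log2 2.48, SE 0.08, limma adjusted p = 1.94e-10). Ifih1, the receptor MDA5, went from 83.7, 86.4 and 98.3 to 343, 347 and 344 (log2 1.94). Their adaptor Mavs had a log2 change of 0.02, the editor Adar of 0.13 and the kinase PKR (Eif2ak2) of 0.16, and none of these passed. Genes that unwind or process such RNA fell: the helicase Dhx9 by 0.79, Ilf2 by 0.75, the mitochondrial exonuclease Pnpt1 by 0.61, Dicer1 by 0.47 and Drosha by 0.46. Of 12 tested genes of cytosolic DNA sensing 9 fell (75%) and 2 rose (16.7%), with a median log2 change of -0.31. Cgas, the DNA sensor, fell by 0.43, and its partner STING (Tmem173) changed by -0.05 and did not pass. The 2 that rose, Irf3 and the RNase H2 subunit Rnaseh2c, lost their call in 4 and 3 of 6 fits with 1 library left out (replicate 2 of either group among them) and when the GC trend was removed, which turned Irf3 to -0.089. Interferon genes were at the floor. Ifnb1 had 0 reads in all 6 libraries (a count of 0 allows up to 3), and no listed interferon gene had more than 2 reads in the 3 irradiated libraries together. Of 12 tested receptor and signalling genes 3 rose (25%) and 2 fell (16.7%), against 27.6% and 25.8% over all tested genes. With the GC trend removed 1 rose and 6 fell. Ifngr2, a chain of the receptor for interferon gamma, rose by 0.47, and Ifnar1 changed by -0.09 without passing. The rises of Tyk2 (0.59) and Ptpn6 (0.50) were not called with the GC trend removed.

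Chemokine, cytokine and NF-kB genes rose in 13 of 25 tested cases and fell in 1 (median log2 0.46, 3 tested through the irradiated libraries alone). With the GC trend removed 12 were higher and 6 lower. Cxcl10, a chemokine for activated T cells, went from 148, 174 and 170.1 to 545, 448 and 508 normalized reads (log2 1.60, SE 0.13). The cytokine Lif rose by 2.08, Il18 by 1.83 and Il33 by 1.81. Il6, Il1a and Il1b, cytokines of the senescence secretome, had at most 3 reads in the 3 irradiated libraries together and were not tested. In the NF-kB family Relb rose by 1.07 and Nfkb2 by 0.93, Nfkb1 fell by 0.38, and the inhibitor Nfkbia changed by -0.05 and did not pass. In MHC class I presentation and immune ligands 22 of 29 tested genes rose and 3 fell (median log2 0.75, 5 tested through the irradiated libraries alone). The peptide transporter Tap1 went from 34.8, 28.4 and 26.5 to 317, 342 and 332 normalized reads (log2 3.43, limma adjusted p = 4.53e-10), and its partner Tap2 rose by 3.68. The class I heavy chain H2-K1 stood at 105, 78.7 and 117 untreated and 361, 347 and 301 irradiated (log2 1.75, SE 0.15), and H2-D1 rose by 1.57. The light chain B2m rose by 0.38. Cd274, the checkpoint ligand PD-L1, went from 115, 108 and 103 to 198, 178 and 178 (log2 0.75, limma adjusted p = 8.97e-05). Falls were those of the signal against phagocytosis Cd47 (-0.68) and of the chaperones Calr and Pdia3 (-0.29 and -0.26), and both chaperones lost their call with equal library totals. Calr also lost it without irradiated replicate 2, and Pdia3 in 5 of 6 fits with 1 library left out.

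Of 36 tested cell death genes 16 rose (44.4%), 4 fell (11.1%) and 16 did not pass (median log2 0.28, 3 tested through the irradiated libraries alone). The split was 16 and 7 with the GC trend removed. Over all tested genes 27.6% rose and 25.8% fell. Hrk, a death-promoting BH3-only protein, had 1, 1 and 1 reads in the untreated libraries and 32, 22 and 26 in the irradiated ones, a ratio of normalized reads of 21.5 (exact 95% interval for counting error only, 7.10 to 107). Tnfrsf10b, the receptor of the death ligand TRAIL, went from 53, 61.9 and 51.7 to 171, 179.7 and 179 normalized reads (log2 1.66). Protective genes rose too: Bcl2l1 (Bcl-xL) by 1.39 and Cflar, an inhibitor of caspase 8, by 0.96. The adaptor Fadd fell by 0.93, and Casp2, a caspase, by 0.49.

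**Figure D3:**
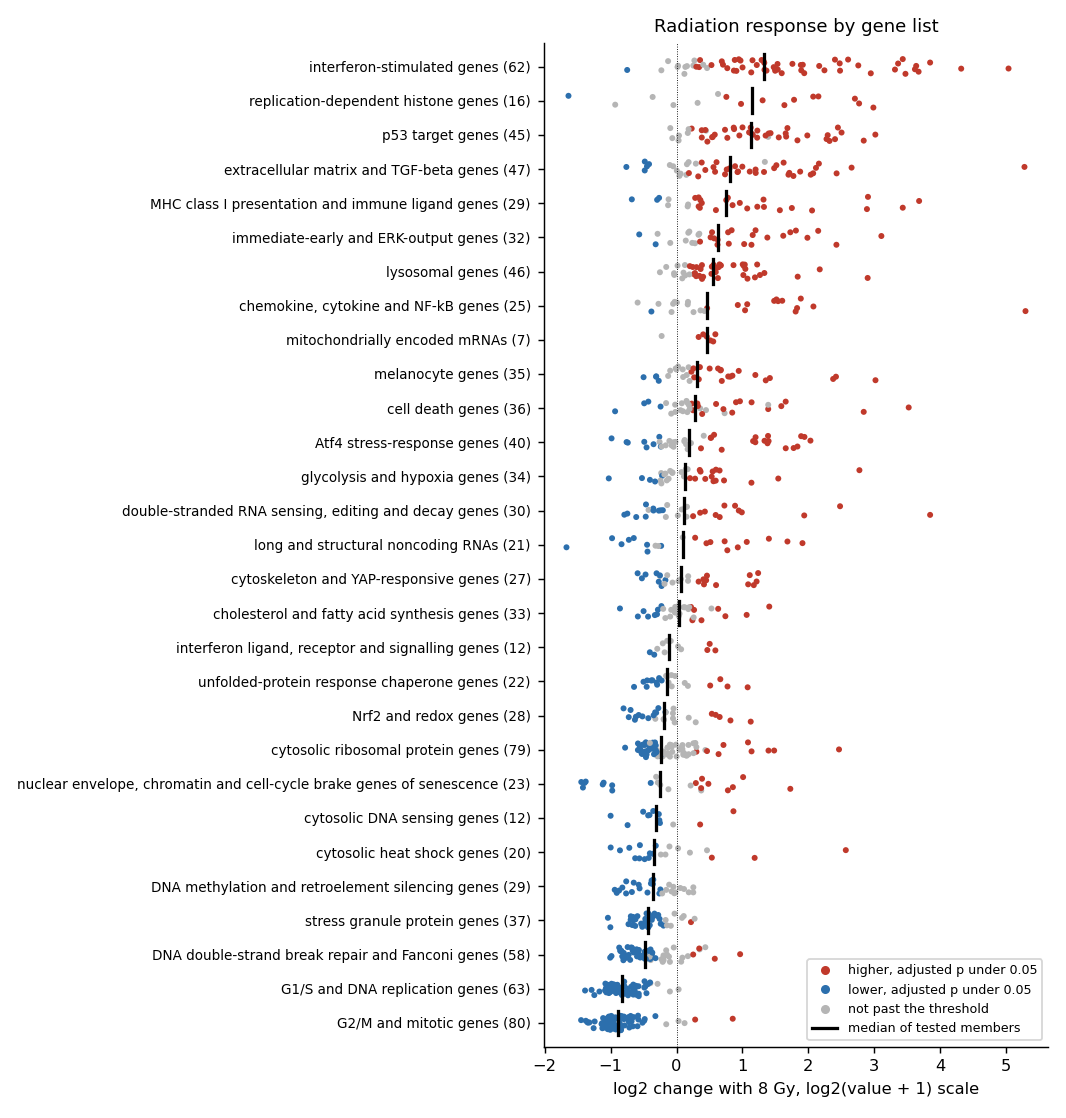
Log2 change with 8 Gy in vector control cells of every tested member of the 29 lists with at least 7 tested members, 1 point a gene (red higher, blue lower, grey not past the threshold), with the median as a bar and the number tested in brackets. Interferon-stimulated genes have the highest median (1.33) and G2/M and mitotic genes the lowest (-0.89).

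Among melanocyte genes 20 of 35 tested rose and 4 fell (median log2 0.31), or 19 and 7 with the GC trend removed. Mitf, the lineage's master factor, went from 10704, 10802 and 9977 to 12694, 13333 and 11884 normalized reads (log2 0.27, limma adjusted p = 0.0087), and Sox10 rose by 0.67. Tyr, the enzyme that starts melanin synthesis, went from 644, 713 and 592 to 1682, 1711 and 1583 (log2 1.35, SE 0.11, limma adjusted p = 2.94e-07). Channels and transporters rose most: Oca2 from 13.3, 10.3 and 15.1 to 112, 104 and 116 (log2 3.02), Slc24a4 by 2.42 and Trpm1 by 2.38. Gpnmb, a glycoprotein of melanosomes and lysosomes, went from 67947, 64604 and 63762 to 175700, 181055 and 167414 normalized reads (log2 1.42). Per kilobase of exon, Pmel had a mean of 40019 normalized reads and Tyr of 91.4 without radiation, and 45903 and 233 with it. The pigment-granule gene Pmel (log2 0.20) did not pass (limma adjusted p = 0.0625) but was called with equal library totals and by DESeq2, and Dct changed by 0.09. Erbb3, Pax3 and Mlana fell by 0.50, 0.31 and 0.31, and the call of Mlana was lost with equal library totals and when irradiated replicate 2 or untreated replicate 3 was left out.

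Lysosomal genes rose in 36 of 46 tested cases, with no fall (median log2 0.55, 1 tested through the irradiated libraries alone), or in 32 with 3 falls when the GC trend was removed. Ctsb, the protease cathepsin B, went from 8859.6, 8426 and 9790.3 to 23251, 22188 and 22657 normalized reads (log2 1.33, SE 0.07, limma adjusted p = 9.32e-09). The protease genes Ctsf and Ctsh rose by 2.90 and 1.84, the membrane protein Cd68 by 2.17 and the glycosidase Gaa by 1.27. Tfeb, a master factor of lysosome genes, rose by 1.04, and Glb1, the enzyme behind the senescence-associated beta-galactosidase stain, by 0.39.

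Matrix and TGF-beta genes rose in 32 of 47 tested cases and fell in 5 (median log2 0.80), or 26 and 10 with the GC trend removed. In all, 20 listed genes were not tested, and 5 entered through the irradiated libraries alone. Fn1, fibronectin, went from 1058, 1154 and 1063 to 2760.3, 3079.8 and 2421 normalized reads (log2 1.33, SE 0.12, limma adjusted p = 1.15e-06). Postn, periostin, went from 379, 404 and 422 to 1604, 1675 and 1669 (log2 2.04), and Sparc, a collagen-binding matrix protein, rose by 1.52. Both plasminogen activators rose, Plau by 2.66 and Plat by 2.43. Ccn2, a target of YAP and TGF-beta, had 178, 151 and 163 and 169, 154 and 184, with overlapping groups. The receptor Tgfbr1 and the matrix protein Thbs1 fell by 0.48 and 0.76. Col1a1, Col1a2, Col3a1, Lum and Dcn of this list are also among the 15 fibroblast and endothelial markers, whose summed values are given above. In that marker list Col1a2 went from a mean of 80.4 to 263 normalized reads and the endothelial gene Vwf from 12.4 to 191, the fibroblast marker Pdgfra fell by 1.41, and Dcn and Kdr had 0 reads. Their part in the matrix result was not tested.

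Immediate-early and ERK-output genes rose in 21 of 32 tested cases (65.6%) and fell in 2 (6.25%), or 17 and 5 with the GC trend removed. Their median log2 change was 0.62, and 3 were tested through the irradiated libraries alone. Over all tested genes 27.6% rose and 25.8% fell. Fos, a subunit of the factor AP-1, went from 22.4, 19.3 and 36.5 to 111, 116 and 118 normalized reads (log2 2.15), and Junb from 18.2, 19.3 and 11.3 to 66.1, 157 and 69.7, where irradiated replicate 2 was more than 2-fold above the others. The feedback phosphatase Dusp6 rose by 0.62, and Myc fell by 0.32. Among 27 tested cytoskeletal and YAP-responsive genes, 1 of them through the irradiated libraries alone, 11 rose and 8 fell (median log2 0.07), and with the GC trend removed 6 rose and 13 fell (median -0.18). Actb, the beta-actin often taken as a reference, fell from 112278, 106304 and 115622 to 69216, 71354 and 81809 (log2 -0.59, limma adjusted p = 0.000224). Rhob, a GTPase induced by DNA damage, rose by 1.21 and Zyx, zyxin of adhesions, by 1.09.

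The Atf4 list, the amino acid and integrated stress response, moved in both directions. Of the 40 that could be tested 18 rose (45%) and 8 fell (20%), with a median log2 change of 0.19. The split was 16 and 14 with the GC trend removed and 23 and 5 with equal library totals. Over all tested genes 27.6% rose and 25.8% fell. Stress factors and their feedback genes rose: Ddit3 (CHOP) from 283, 255 and 286 to 1116, 1036 and 1023 normalized reads (log2 1.94, SE 0.18), Atf3 from 139, 142 and 163 to 542, 516 and 594 (log2 1.89), and Nupr1 by 2.03. Trib3, a pseudokinase induced by CHOP, went from 270.2, 264 and 279.7 to 887, 1049 and 871 (log2 1.78, limma adjusted p = 4.48e-05). Atf4 itself fell by 0.26. The methionyl-tRNA synthetase Mars fell by 0.99, the amino acid transporters Slc38a2 and Slc7a1 by 0.76 and 0.74, and the serine enzyme Psat1 by 0.49. Ddit3 and Mars overlap at their ends on opposite strands of chromosome 10 (127290774 to 127296288 and 127296221 to 127311786), and the strand setting of the counting is not given.

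Chaperones of the endoplasmic reticulum and cytosol fell more often than they rose. In the unfolded-protein response 10 of 22 fell and 4 rose (median log2 -0.15). The sensors Ern1 and Atf6 rose by 1.08 and 0.77, while Manf, Creld2 and Hspa5, the chaperone BiP, fell by 0.64, 0.50 and 0.39. Of 20 tested cytosolic heat shock genes, 1 of them through the irradiated libraries alone, 11 fell (55%) and 3 rose (15%), with a median log2 change of -0.34. Hsph1, a chaperone of the HSP110 family, had 7077, 7219.6 and 7263 normalized reads untreated and 3637, 3498 and 3648 irradiated (log2 -1.0), and the small heat shock gene Cryab rose by 0.54. Hspb8 rose by 2.57, or by 3.18 without untreated replicate 3. In the Nrf2 and redox list 13 of 28 fell (46.4%) and 5 rose (17.9%), with a median log2 change of -0.19. Gsr, which reduces glutathione, and the thioredoxin gene Txn1 fell by 0.80 and 0.73. Hmox1, which breaks down heme, rose from 2125, 1873 and 2111 to 4380.1, 4480.4 and 4451 (log2 1.13), and Gpx4, which detoxifies lipid peroxides, by 0.65, or 0.004 (not called) with the GC trend removed.

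In the glycolysis and hypoxia list 15 of 34 rose and 5 fell (median log2 0.13), and with the GC trend removed 9 rose and 13 fell (median -0.04). The neuronal enolase Eno2 rose by 2.78, the carbonic anhydrase Car9 by 1.54 and the growth factor Vegfa by 1.14. Ldha, lactate dehydrogenase, fell from 41507, 40303 and 42688 to 29914, 27279 and 29383 normalized reads, and the oxygen sensor Egln3 fell by 1.03. Of 33 cholesterol and fatty acid synthesis genes 8 rose and 8 fell (median log2 0.03), shares near those over all tested genes (27.6% and 25.8%), or 6 and 13 with the GC trend removed (median -0.09) and 13 and 7 with equal library totals. Tm7sf2 of sterol synthesis rose by 1.41 and the fatty acid elongase Elovl6 fell by 0.86.

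Genes of translation and RNA binding fell more often than they rose. Of 79 ribosomal protein genes 35 fell (44.3%), 9 rose (11.4%) and 35 did not pass (median log2 -0.23). With the GC trend removed 50 fell and 6 rose (median -0.43). Of all protein-coding genes with a mean of 10000 or more over the 12 libraries, 52.8% fell and 17.7% rose. Rps25 fell from 31755, 30619.8 and 37056 to 23298, 20777 and 21999.6 normalized reads (log2 -0.59). Larger changes stood on the other side. Rpl36 had 3959, 1556 and 1252 and then 9319, 17939 and 7789 normalized reads (log2 2.47, SE 0.61, limma adjusted p = 0.004), and Rplp1 18594, 11488 and 11059 and 35573, 47094 and 30708. In both genes, and in Rplp2, irradiated replicate 2 was highest, the library with the largest GC gap (0.36). Without it the log2 changes were 2.11, 1.31 and 0.97 for Rpl36, Rplp1 and Rplp2. Of 37 stress granule protein genes 29 fell and 1 rose (median log2 -0.43), led by the RNA-binding proteins Hnrnpa1 (-1.04) and Tardbp (-1.0). The 1 that rose, Atxn2, lost its call in 5 of 6 fits with 1 library left out. Of 29 tested genes of DNA methylation and retroelement silencing 17 fell and none rose (median log2 -0.35). Uhrf1, which guides maintenance methylation, went from 12153, 11240.3 and 11195 to 6194, 6295 and 5938 normalized reads, and Dnmt3b, Suv39h1 and Trim28 fell by 0.94, 0.87 and 0.76. Mitochondrially encoded mRNAs rose in 6 of 7 tested cases (85.7%, against 27.6% over all tested genes), with a median log2 change of 0.46, among them mt-Co1 by 0.59. Of the 13 listed 6 did not pass the filter, and 2 had 0 reads in all 6 vector control libraries, so the result covers a part of the set. Reads in mitochondrial genes made up 2.51% to 2.74% of the untreated and 3.6% to 3.93% of the irradiated libraries.

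By kind of transcript, 29.4% of 11915 protein-coding genes rose and 29.1% fell. Long noncoding types leaned to rises, with 38.3% of 1136 higher and 8.45% lower, and 252 of them entered through the irradiated libraries alone. Of protein-coding genes with a mean of 10 to 100 over the 12 libraries, 50.9% rose and 5.47% fell. Of 37 small nucleolar RNAs 14 fell and 3 rose. In the list of long and structural noncoding RNAs 10 of 21 rose and 8 fell (median log2 0.09, or -0.19 with the GC trend removed). Trp53cor1, the lincRNA-p21 induced by p53, went from 159, 133 and 154 to 502, 492 and 442 normalized reads (log2 1.68, SE 0.10, limma adjusted p = 2.87e-08). Mir22hg, host of a microRNA, rose by 1.91, the nuclear RNA Malat1 by 1.07 and Neat1, the scaffold of paraspeckles, by 0.73. Mir17hg, host of the miR-17-92 cluster, fell from 169, 226 and 171 to 66.8, 53.6 and 54.7 (log2 -1.67), and the snoRNA host Snhg5 by 0.98. Mx2, annotated as a polymorphic pseudogene and known as an interferon-stimulated gene, rose from a mean of 8.28 to 97.2. Pcna-ps2 and Atp6v0c-ps2, processed copies that can share reads with Pcna and Atp6v0c, changed by -1.06 and 1.89, the latter not called in 4 of 6 fits with 1 library left out or with the GC trend removed (log2 1.41, limma adjusted p = 0.0501).

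Protein-coding genes differed by GC content and level. Split by GC content into 5 classes of equal size, 15.3% rose and 39.3% fell in the lowest class and 47.2% rose and 9.82% fell in the highest. The share that rose increased at each step (20.2%, 28.0% and 36.4% between), and the share that fell was 40.0%, 33.9% and 22.4%. Of 1700 genes with a mean of 10 to 100 over the 12 libraries 50.9% rose and 5.47% fell, but 312 of the 1700 needed irradiated libraries to pass the filter. Of 316 genes at 10000 or more 17.7% rose and 52.8% fell, and none of these needed irradiated libraries to pass.

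**Figure D4:**
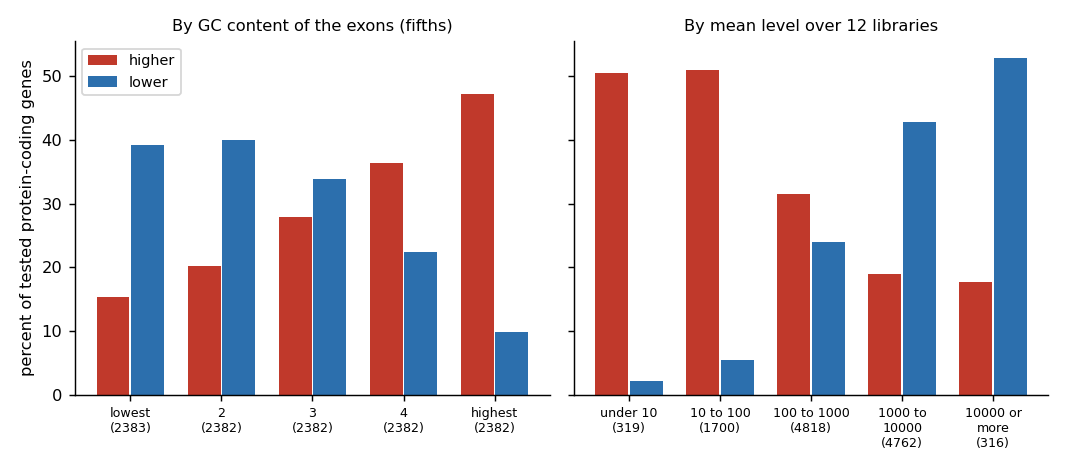
Percent of tested protein-coding genes called higher (red) or lower (blue) with 8 Gy in vector control cells, by 5 equal classes of exonic GC content and by mean level over the 12 libraries, with the number of genes in brackets. The share that rose goes from 15.3% in the lowest GC class to 47.2% in the highest.

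In all, 35 protein-coding genes went from a mean under 1 normalized read to at least 10. Robo3, an axon guidance receptor, had 0 reads in all untreated libraries and 38, 36 and 15 in the irradiated ones. With 3 reads set in place of 0 this is 23.9-fold. The exact 95% interval for counting error only has a lower limit of 19.1. Lamc3, a laminin chain, had 0 and then 37, 30 and 19 reads, 23.1-fold on the same floor (lower limit 18.4). C4b, a complement component, had 3 reads untreated and 85 irradiated (ratio of normalized reads 22.9, exact 95% interval for counting error only, 7.56 to 113). Others of this kind were Acaa1b of fat metabolism, Padi3, Olig3 and Apol9b. In the other direction Nog, noggin, an inhibitor of BMP signals, was the 1 such gene, with 21, 10 and 17 reads untreated and 0, 2 and 1 irradiated (ratio 0.0504, interval 0.010 to 0.156).

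The number of genes whose radiation effect differed between genotypes depended on the libraries fitted. By the interaction term of the same fit 81 of 14721 genes (0.55%) passed, 20 with a higher and 61 with a lower effect in Bub1KO cells. The fit without Bub1KO untreated replicate 1, a library that stands apart from its group, called 1447, so the count rests on that library. Of the 40 tested Atf4 genes 21 passed. The median log2 change of this list was 0.19 in vector control and -0.62 in Bub1KO cells. Trib3 had means of 271 and 936 normalized reads in untreated and irradiated vector control cells and of 2261 and 951 in Bub1KO cells. The interaction was -2.98 (SE 0.35, limma adjusted p = 0.00119). Nupr1 (-2.11) and Atf3 (-1.72) were called likewise. In the mitotic and G1/S lists no member passed, of the p53 list 1 (Sesn2, also in the Atf4 list) and of the 62 tested interferon-stimulated genes 1 (Dhx58, a regulator of RIG-I). These list counts come from the fit that holds Bub1KO untreated replicate 1, and they do not show an equal response. In vector control and Bub1KO cells the median log2 change was -0.89 and -1.05 for the mitotic list and -0.83 and -0.96 for G1/S. It was 1.13 and 1.07 for p53 targets and 1.33 and 1.86 for interferon-stimulated genes.

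**Figure D5:**
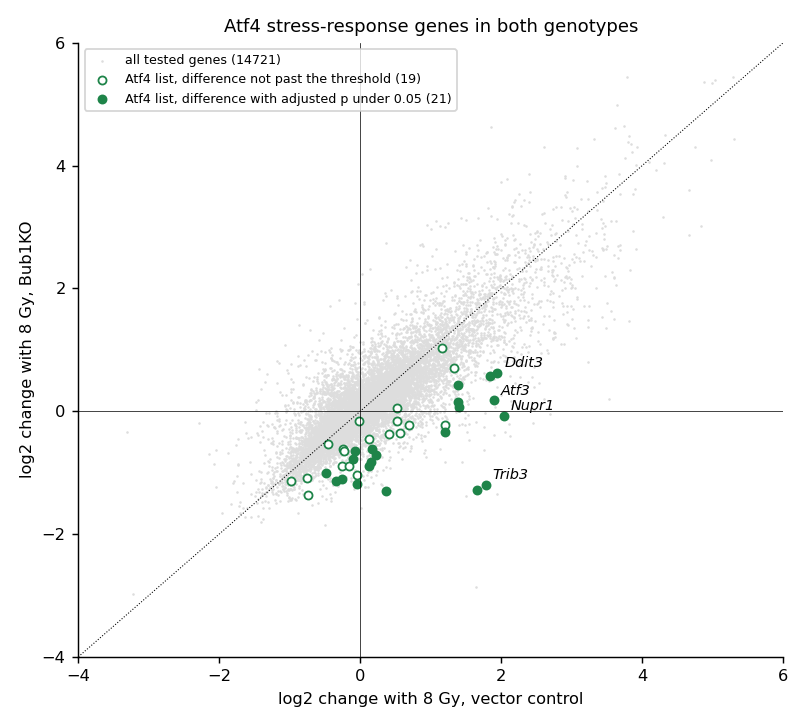
Log2 change with 8 Gy in Bub1KO cells (vertical) against vector control cells (horizontal) for all tested genes (grey) and the 40 tested Atf4 stress-response genes (green, filled for the 21 whose difference passed). The dotted line marks equal change, and the filled points lie below it.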

How the data were processed

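RNA-seq of 12 B16F10 libraries was used, 3 in each of 4 groups. The authors deposited per-gene signal values for each library in 2 tables, and from the values these are read counts divided by 1 size factor per library. All values in the vector control columns came out as whole reads (within 0.01 of a whole number) once multiplied by that factor. Trim Galore, cutadapt, STAR, SAMtools and HTSeq and the build GRCm38.p6 (mm10) are named, with no versions, per the submitters' processing notes. The strand setting is not given in the sources used here. Strand-blind counting would not tell a gene from an antisense partner.

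The tables were joined by gene identifier, after checking that both carry the same mean over the 12 libraries. Genes that reached a value of 10 in 3 or more libraries were fitted with limma 3.58.1 (R 4.3.3) on log2(value + 1) with 4 group means over all 12 libraries, which share 1 estimate of the spread. The test was two-sided, with Benjamini-Hochberg adjustment over the 14721 genes and a threshold of 0.05, and was tested on simulated data. The alternatives were edgeR 4.0.16 and DESeq2 1.42.0 on the recovered reads, TMM factors, equal library totals, removal of each library's trend with GC content, other pseudocounts (0.5 and 5) and filters, a replicate block, fewer libraries, and each vector control library left out in turn. Positions and GC content are those of GRCm38. Intervals for low genes are exact binomial intervals on the pooled reads of each group's 3 libraries. They cover counting error only and leave out the variation between libraries. No molecular identifiers are given.

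The 32 gene lists, their members and the tests were chosen with earlier results of these data known. Genes were named by rule: set readouts, the 3 largest changes each way in every list, the 10 largest rises and falls among protein-coding genes with a mean of at least 50, noncoding genes with the largest changes, and genes that went from near 0 to present or the reverse. Beyond that rule, these were chosen after their values were seen: Adar, Adgre1, Atf4, Atp6v0c, Bcl2l1, Bst2, Btg2, Ccnd3, Cd3e, Cdc20, Cdkn2a, Cdkn2b, Cflar, Cgas, Col3a1, Ctsb, Dcn, Dct, Ddb2, Dhx58, Dicer1, Drosha, Dusp6, Eda2r, Eif2ak2, Gaa, Glb1, Gpnmb, H2-D1, Hist1h1c, Hspa5, Ifit2, Ifnar1, Ifnb1, Il18, Il1a, Il1b, Il33, Il6, Irf9, Kdr, Kif22, Lbr, Lum, Malat1, Mavs, Neat1, Nfkb2, Nfkbia, Plk2, Postn, Ppm1d, Prkdc, Psat1, Relb, Sesn2, Sox10, Sparc, Stat2, Tfeb, Tmem173, Trim28, Tyrobp, Usp18, Xpc, Xrcc6 and Zyx. The values of a few list members are not reported here.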

Additional observations from a re-analysis of the deposited data

Results flagged for a closer look

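For 10 of the named genes the radiation effect differed between Bub1KO and vector control cells by the interaction term of the limma fit. Values are the log2 effect in Bub1KO cells minus that in vector control cells. Trib3 (-2.98, limma adjusted p = 0.00119), Nupr1 (-2.11, limma adjusted p = 0.00277) and Atf3 (-1.72, limma adjusted p = 0.000754), of the Atf4 stress response, passed in all 17 alternative settings. The death gene Hrk differed by -3.33 (limma adjusted p = 0.0154) and was lost when any of the 3 irradiated vector control libraries was left out (largest adjusted p 0.0615). It passed the filter only through the irradiated vector control libraries, where it is high, so a difference was built into its selection (means 1.13 and 23.5 normalized reads in vector control and 4.51 and 4.81 in Bub1KO cells). The snoRNA host Snhg8 differed by -1.32 (limma adjusted p = 0.0189, lost in 5 of 17 settings), and Ddit3 by -1.31 (limma adjusted p = 0.0416, lost in 8 of 17, every fit with a vector control library left out among them). The chemokine gene Ccl5 differed by -0.87 (limma adjusted p = 0.0436) and was lost in 10 of 17 settings, edgeR and DESeq2 among them. The exchanger gene Slc24a4 differed by -0.77 (limma adjusted p = 0.0171, lost in 3 of 17 settings). Cd68 rose more in Bub1KO cells (log2 3.41 against 2.17, a difference of 1.24, limma adjusted p = 0.0172, lost in 3 of 17 settings). Egln3 fell by 1.03 in vector control cells and changed by 0.10 in Bub1KO cells, where it did not pass (difference 1.13, limma adjusted p = 0.0446, lost in 7 of 17).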

How the results depend on the processing

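Over all settings run, counts over all genes stayed within 1.5 times the reported count in 112 cases and moved beyond it in 29, and list counts did so in 1098 and 54. For named genes, 3722 of the alternative values kept direction and side of the threshold, 96 lost the call, 19 gained it and 2 changed sign. Both sign changes came with the GC trend removed, for Bax (-0.32) and Irf3 (-0.089). Genes called with radiation in vector control cells numbered 7765 by DESeq2, 7990 by edgeR, 8889 with the GC trend removed and 6733 to 7120 with 1 vector control library left out (3470 to 3708 higher, 3263 to 3434 lower). Genes at least 2-fold lower were 547 with the GC trend removed, 178 with equal totals, 175 with a filter of 50 (which also left 991 at least 2-fold higher, from fewer genes tested) and 257 to 301 with 1 library left out. Genes at least 2-fold higher were 1612 to 1765 with 1 library left out. The difference between genotypes moved most. It was called for 283 genes by DESeq2 (92 higher, 191 lower), 402 with the GC trend removed (129 and 273), 33 to 54 with 1 vector control library left out (8 to 12 and 25 to 45) and 1447 without Bub1KO untreated replicate 1 (339 and 1108), whose chi-square per gene against the other libraries of its group was 54.9 and 57.7, against 8.38 between those. The cause was not tested. Replicate numbers gave no sign of pairing: same-numbered libraries correlated at -0.03, 0.05 and 0.02 in their deviations from the group mean. Unlike-numbered libraries correlated at -0.12 to 0.12. The labels do not tell whether samples were paired, and these values cannot settle it. A replicate block gave 7582 genes for radiation (3951 higher, 3631 lower) and 47 for the difference between genotypes (12 and 35). At 19380726 reads in the shallowest library, genes with a few reads carry wide counting intervals.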

Other observations

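Families grouped by gene symbol, chosen after their values were seen and not tested, leaned one way. Among all tested protein-coding genes 29.4% rose and 29.1% fell, with shares that differed by level. At a mean of 1000 to 10000 over the 12 libraries 42.84% fell and 18.96% rose. At a mean of 10 to 100, 5.47% fell and 50.9% rose. Nuclear pore genes (symbols beginning with Nup) fell in 16 of 20 tested cases and rose in none (median log2 -0.60). The RNA-binding Lsm genes fell in 10 of 13, Integrator subunits (Ints) in 13 of 15, RNA polymerase subunits (Polr) in 20 of 28 with 2 rises, and translation initiation genes (Eif) in 34 of 52 with 1 rise. In the other direction, aldehyde dehydrogenases (Aldh) rose in 10 of 14 cases with 1 fall (median log2 0.83) and clustered protocadherins (Pcdhb) in 10 of 14 with no fall (0.81). The large zinc finger family (Zfp) was near balance, with 69 rises and 57 falls among 331 genes (median log2 0.01). By their average level the Nup, Lsm, Ints, Polr and Eif families lie in the class of 1000 to 10000. Pcdhb lies in that of 10 to 100, so level may account for part of these leanings, which was not tested. Counts with the GC trend removed are not given for these families.

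Around Cdkn1a on chromosome 17, chosen after values were seen, neighbours within 100 kb moved both ways. Trp53cor1, 11.8 kb away, went from a mean of 149 to 479 normalized reads (log2 1.68), and Rab44, 13.4 kb away on the other side, from 4.22 to 97.1 (log2 4.29). Srsf3, a splicing factor gene 47.6 kb away, fell by 1.0 on the log2 scale and Stk38 by 0.30. The transcript 1700023B13Rik lies inside Cdkn1a on the opposite strand (6.73 to 18.2 normalized reads), and without the strand setting its reads cannot be told apart from those of Cdkn1a.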
